A study of Mus musculus with 15 samples.

Results

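Cyp3a44, Cyp3a41a, Cyp3a11, Cyp3a57 and Cyp3a59 are the rows of the mouse liver expression table whose gene symbol starts with Cyp3a, 5 of 2545 rows. The rule used the symbol and no value, but the family was picked with earlier results of these data known. The other 4 protein-coding Cyp3a genes of the annotation (Cyp3a13, Cyp3a16, Cyp3a25 and Cyp3a41b) enter below through their sequences only, and their expression was not analysed here. Cyp3a44 rose 30.0-fold in mice given estradiol compared to vehicle, and was 21.1-fold lower with conjugated estrogens plus bazedoxifene than with estradiol. Cyp3a41a was 8.45-fold lower in the latter comparison. Cyp3a11, Cyp3a57 and Cyp3a59 had their highest group mean in vehicle-treated mice, and none of their differences passed the test.

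The Cyp3a genes encode cytochrome P450 monooxygenases of the endoplasmic reticulum, which hydroxylate drugs, steroid hormones and bile acids. In mouse liver they are controlled by ligand-activated nuclear receptors, among them the pregnane X receptor (Nr1i2) and the constitutive androstane receptor (Nr1i3), and by the pattern of growth hormone secretion, which differs between the sexes. Cyp3a11 is the main inducible isoform of the adult liver, while Cyp3a41a and Cyp3a44 are known as isoforms that predominate in females.

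Liver RNA was sequenced from 15 female C57BL/6 mice (C57BL/6J in the methods), 3 in each of 5 groups. All 15 were fed a high-fat diet from 8 weeks of age, had the ovaries removed at 10 weeks and were then treated for 6 weeks. Controls received the vehicle (Veh). Estradiol (E2) was given at a daily dose of 5 μg/kg, conjugated estrogens (CE), a mixture of estrogens, at 2.5 mg/kg, and bazedoxifene (BZA), a selective estrogen receptor modulator, at 3 mg/kg. A further group received CE with BZA (CE+BZA), for which no separate dose is stated. By the methods, E2 came from slow-release pellets and CE from an osmotic minipump. The methods also give the E2 content of the pellet, without relating it to the stated daily dose. Since every mouse was ovariectomized and on the high-fat diet, no group shows the liver of an intact or lean female. Dose and delivery differ between treatments, which are therefore compared as they were given.

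Each value below is a log2 normalized expression value from which the gene's own median across 15 mice was subtracted. A value of 0 is therefore the median mouse, and values of different genes cannot be set against each other as levels. All 2545 genes of the table differed more than 2-fold from Veh in at least 1 treatment group mean, so each Cyp3a row had to differ somewhere to be listed, and the count of Cyp3a rows in the table is not a result. Tests against Veh use the same mice, so their p-values, FDRs and shares of all genes come from rows already selected for such differences. Cyp3a44 was over 2-fold from Veh only with E2 (log2 difference 4.90) and CE (2.60), and Cyp3a41a likewise (2.15 and 1.29). Comparisons of E2 or CE with other treatments reuse these values, so for these genes they carry the same limit. Mice are named by group and by the replicate number of their label. In bulk liver, fewer cells of a type and less RNA per cell cannot be told apart.

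BZA mouse 3 stood apart from the other 14 mice. Adipoq, an adipocyte hormone, was at 5.52 in it and at most at 0.89 in the others, and the pancreatic amylase Amy2a5 was at 7.74 and at most at 1.08. Of the adipocyte markers, 8 of 13 were in the table, with a mean between -0.27 and 3.75 in BZA mice. Of the pancreas and intestine markers, 9 of 14 were in the table, with a mean between -0.06 and 5.14 in BZA mice. Results that rest on BZA are given with and without this mouse. Only 1 of 12 hepatocyte markers (Tat) was in the table, so the liver label could not be checked against its defining genes. Sequencing depth is unknown, and no counting interval can be given.

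The 5 genes lie on chromosome 5 of the mouse genome (GRCm38) within 768009 bp. Cyp3a57 is at chr5:145345279-145390926 on the plus strand, Cyp3a41a at chr5:145694049-145720136 on the minus strand, Cyp3a44 at chr5:145773983-145805874 on the minus strand, Cyp3a11 at chr5:145854426-145879964 on the minus strand and Cyp3a59 at chr5:146079257-146113287 on the plus strand. Cyp3a41a and Cyp3a44 are thus neighbours in the same orientation. All 5 are protein coding, and the main transcript of each has 13 exons.

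The 250 bases upstream of each start site show how the 5 genes are related, and are printed 5′ to 3′ in the sense of the gene, as given by RefSeq for GRCm38.p6. The windows are chr5:145805875-145806124 (minus strand) for Cyp3a44, chr5:145720137-145720386 (minus) for Cyp3a41a, chr5:145879855-145880104 (minus) for Cyp3a11, chr5:145345019-145345268 (plus) for Cyp3a57 and chr5:146079008-146079257 (plus) for Cyp3a59. The RefSeq start site of Cyp3a11 lies inside the gene as annotated above, so its window overlaps the first annotated bases of that gene. Capitals mark the nuclear receptor half-sites AGGTCA and AGTTCA on either strand and the HNF4-type element CAAAGTCCA.
Cyp3a44: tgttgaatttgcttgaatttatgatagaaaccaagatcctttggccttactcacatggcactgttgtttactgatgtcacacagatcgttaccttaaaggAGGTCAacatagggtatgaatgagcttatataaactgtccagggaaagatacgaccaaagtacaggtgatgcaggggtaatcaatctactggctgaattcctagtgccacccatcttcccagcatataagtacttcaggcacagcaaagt
Cyp3a41a: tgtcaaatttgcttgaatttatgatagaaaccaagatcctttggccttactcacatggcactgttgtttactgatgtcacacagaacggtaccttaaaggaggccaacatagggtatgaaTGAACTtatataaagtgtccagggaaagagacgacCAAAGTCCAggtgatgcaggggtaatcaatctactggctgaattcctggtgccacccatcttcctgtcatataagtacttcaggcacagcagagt
Cyp3a11: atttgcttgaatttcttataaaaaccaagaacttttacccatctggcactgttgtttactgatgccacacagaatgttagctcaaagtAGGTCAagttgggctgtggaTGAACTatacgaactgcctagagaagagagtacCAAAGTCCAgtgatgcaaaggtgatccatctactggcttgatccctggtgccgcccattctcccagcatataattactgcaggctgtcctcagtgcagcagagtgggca
Cyp3a57: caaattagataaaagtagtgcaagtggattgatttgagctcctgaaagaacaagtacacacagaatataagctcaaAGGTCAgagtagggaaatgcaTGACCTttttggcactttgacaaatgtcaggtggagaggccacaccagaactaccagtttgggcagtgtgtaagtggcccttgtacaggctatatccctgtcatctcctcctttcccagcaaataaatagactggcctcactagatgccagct
Cyp3a59: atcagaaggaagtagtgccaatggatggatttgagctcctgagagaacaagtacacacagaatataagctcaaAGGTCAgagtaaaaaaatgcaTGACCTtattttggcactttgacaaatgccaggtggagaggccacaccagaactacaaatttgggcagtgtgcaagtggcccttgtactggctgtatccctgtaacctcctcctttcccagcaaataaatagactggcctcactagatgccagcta

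Over aligned columns, the upstream windows of Cyp3a44 and Cyp3a41a were 94.4% identical, and those of Cyp3a57 and Cyp3a59 90.2%. The Cyp3a11 window was 73.1% identical to that of Cyp3a44 and 58.4% to that of Cyp3a59. Between Cyp3a44 and Cyp3a57 the identity was 57.8%, within the 53.2 to 59.6% that the window of the more distant Cyp3a13 shared with the other 8 windows of the family. Among genes with a row, the sequences form a Cyp3a44 and Cyp3a41a pair, with Cyp3a11 nearest to it, and a Cyp3a57 and Cyp3a59 pair. Genes without a row were closer in several cases. The Cyp3a41b window was 99.6% identical to that of Cyp3a41a and 94.8% to that of Cyp3a44. The Cyp3a16 window was 92.9% identical to that of Cyp3a44. The Cyp3a25 window was 94.8% identical to that of Cyp3a59. The pairs are therefore not the closest relatives within the whole family.

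Both strands were searched for each motif, over the same 250 bases of 27025 RefSeq promoters. AGGTCA was present in 13.8% of all promoters, and among the 5 genes in Cyp3a44 (from -150 to -145 relative to the start site), Cyp3a11, Cyp3a57 and Cyp3a59. Cyp3a57 and Cyp3a59 each held it once on either strand. AGTTCA was present in 11.9% of all promoters, and in Cyp3a41a and Cyp3a11. CAAAGTCCA was present in 0.381% of all promoters, and in Cyp3a41a (from -95 to -87) and Cyp3a11 but not in Cyp3a44. The palindromic estrogen response element GGTCANNNTGACC, which can overlap AGGTCA, was in 0.0629% of all promoters, the everted repeat TGAACTNNNNNNAGTTCA, which contains AGTTCA, in 0.0074%, and the STAT5 element TTCNNNGAA in 7.18%. These 3 motifs had no match in the upstream windows of the 9 protein-coding Cyp3a genes (0 of 9 for each), which says only that these letters are not in these 250 bases.

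The transcripts are also alike, which bears on how reads can be assigned. The coding sequences of Cyp3a44 and Cyp3a41a were 95.8% identical over 1512 bases, and those of Cyp3a57 and Cyp3a59 94.2%. That of Cyp3a11 was nearly as close to the former pair, 95.2% identical to Cyp3a41a and 94.9% to Cyp3a44. Cyp3a41a and Cyp3a41b differed at 2 of 1512 coding bases. Of all stretches of 100 bases in the Cyp3a41a transcript, 88.4% occurred unchanged in Cyp3a41b, and 2.40% in Cyp3a44. For Cyp3a44, 5.37% of such stretches occurred in any other Cyp3a gene or pseudogene, and 2.52% in Cyp3a41a. The share was 0.312% for Cyp3a11, 5.61% for Cyp3a59, mostly with Cyp3a25, and 0% for Cyp3a57 (0 of 1887 stretches). How reads that match several genes were counted is not given in the sources used here, so the Cyp3a41a row is uncertain between Cyp3a41a and Cyp3a41b, while less of Cyp3a44 is shared at this length. Over stretches of 50 bases more was shared, 26.5% for Cyp3a44, 14.8% for Cyp3a11, 28.0% for Cyp3a59 and 8.88% for Cyp3a57.

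Cyp3a44, a female-predominant steroid hydroxylase, gave the clearest separation of groups. Its values were 0.00 (mouse 7), -1.86 (mouse 1) and -1.75 (mouse 4) with Veh. With E2 they were 3.76 (mouse 4), 2.72 (mouse 3) and 4.62 (mouse 5). With CE they were 1.20 (mouse 7), 1.57 (mouse 6) and 1.42 (mouse 3). All 3 E2 mice were thus above all other 12 mice, and the 3 CE mice were above all Veh, BZA and CE+BZA mice. With BZA the values were -1.46 (mouse 3), -0.16 (mouse 1) and 0.05 (mouse 4), and with CE+BZA -0.36 (mouse 1), -1.65 (mouse 2) and -0.10 (mouse 3). The BZA and CE+BZA mice overlapped each other and the Veh mice, in which mouse 7 was the highest.

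**Figure D1:**
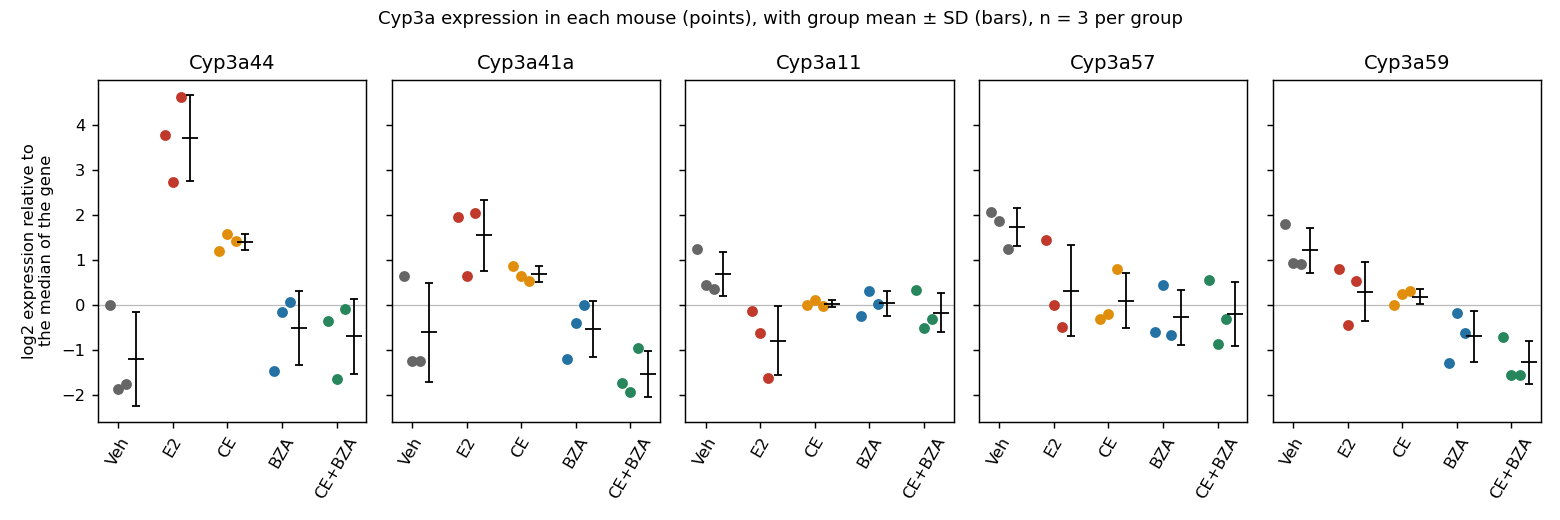
Expression of the 5 Cyp3a genes in each mouse by group, as log2 values relative to the gene's median (y axis); points are mice and bars the group mean ± SD (n = 3). Cyp3a44 was between 2.72 and 4.62 in E2 mice and at most 1.57 in all others, while Cyp3a57 and Cyp3a59 had their highest group mean in Veh mice.

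The mean of Cyp3a44 was -1.20 ± 1.04 (SD, n = 3) with Veh and 3.70 ± 0.95 with E2, a difference of 4.90 on the log2 scale (SE 0.65, 95% confidence interval 3.53 to 6.28), or 30.0-fold. By limma over all 2545 genes the FDR was 0.00231. To pass this test a gene needed both a fold change above 2 and an FDR below 0.05, and in E2 against Veh 0.196% of all genes passed, among them Cyp3a44 as 1 of the 5 Cyp3a rows. Cyp3a44 kept this call when each of the 15 mice was left out in turn, with a log2 difference between 4.45 and 5.51 and an FDR between 0.00225 and 0.0315. The upper end, 45.5-fold, was reached without Veh mouse 7. Without overlap, E2 mice were above Veh mice for Cyp3a44 and below them for Cyp3a11 and Cyp3a59 (1 and 2 of 5 Cyp3a rows, beside 10.3 and 12.4% of all genes). The Cyp3a44 call was lost when only the 6 mice compared entered the fit (FDR 0.103). Markers of other cells moved in the same comparison, as the mean of the 8 adipocyte markers was 0.60 to 0.68 in Veh mice and -0.39 to -0.10 in E2 mice. This gap was carried by Cfd (3.15 to 4.89 with Veh and -1.97 to -0.83 with E2) and Car3, while Adipoq, Plin1 and Lep were at 0 in all Veh mice and at most at 0.10 in E2 mice.

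CE gave a smaller difference in the same direction. The CE mean of Cyp3a44 was 1.40 ± 0.19 (SD, n = 3), 2.60 above Veh (SE 0.65, 95% confidence interval 1.23 to 3.98, FDR 0.145 by limma), which did not pass. In CE against Veh 0.157% of all genes passed and no Cyp3a row did (0 of 5, against 2 higher and 1 lower at a fold change above 2 and an unadjusted p under 0.05, called in 10.1 and 8.45% of all genes). All CE mice were above all Veh mice for 1 of 5, Cyp3a44, beside 13% of all genes. In the same comparison the adipocyte mean was -0.39 to 0.19 with CE, below Veh. This gap was carried by Cfd (at least 3.15 with Veh and at most 0.53 with CE) and Car3. Adipoq, Plin1 and Lep were at 0 in all Veh mice and at most at 0.11 in CE mice. Adrb3, also an adipocyte marker, leaned the other way (-1.27 to 0.29 with Veh and 0.09 to 0.95 with CE). The mean of 6 of 14 lymphocyte markers was 0.48 to 0.92 with CE and -0.76 to 0.35 with Veh. The macrophage gene Marco was at 0.63 to 2.82 with CE and -1.24 to 0.27 with Veh. The part of these markers in the result was not tested. Direct comparison of E2 with CE gave 2.30 (95% confidence interval 0.93 to 3.68, unadjusted p 0.00256 and FDR 0.387 by limma), and 0.0393% of all genes and 0 of 5 Cyp3a rows passed there (1 higher and 0 lower at the unadjusted p, beside 3.38 and 5.7%). All E2 mice were above all CE mice for Cyp3a44 and below them for Cyp3a11 (1 of 5 each, beside 5.54 and 7.94% of all genes), but the difference between these treatments did not pass.

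Neither BZA nor CE+BZA passed against Veh for Cyp3a44. The BZA mean was -0.52 ± 0.82 (SD, n = 3), 0.68 above Veh (95% confidence interval -0.69 to 2.06), and 1.15 above Veh without BZA mouse 3. The CE+BZA mean was -0.70 ± 0.83 (SD, n = 3), 0.51 above Veh (95% confidence interval -0.87 to 1.88). Both intervals include 0 and also increases of more than 2-fold, so these values do not show that either treatment left the gene at its Veh level.

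Cyp3a41a, the other female-predominant isoform, followed Cyp3a44 with a smaller range. Its values were 0.65 (mouse 7), -1.24 (mouse 1) and -1.25 (mouse 4) with Veh. With E2 they were 1.94 (mouse 4), 0.64 (mouse 3) and 2.04 (mouse 5). The E2 and Veh mice overlapped, because Veh mouse 7 was slightly above E2 mouse 3. With CE the values were 0.87 (mouse 7), 0.65 (mouse 6) and 0.52 (mouse 3), with BZA -1.21 (mouse 3), -0.39 (mouse 1) and 0.00 (mouse 4), and with CE+BZA -1.72 (mouse 1), -1.92 (mouse 2) and -0.96 (mouse 3). All CE+BZA mice were below all E2 and all CE mice.

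The E2 mean of Cyp3a41a was 1.54 ± 0.78 (SD, n = 3) against -0.61 ± 1.09 with Veh, a difference of 2.15 (SE 0.59, 95% confidence interval 0.90 to 3.40) that did not pass (unadjusted p 0.00209, FDR 0.143 by limma). The difference from Veh was 1.29 with CE (FDR 0.261), 0.08 with BZA (FDR 0.955; 0.41 without BZA mouse 3) and -0.92 with CE+BZA (FDR 0.325), none of which passed. The sign of the BZA value depended on the mice included, with -0.24 to 0.71 when each mouse was left out in turn.

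**Figure D2:**
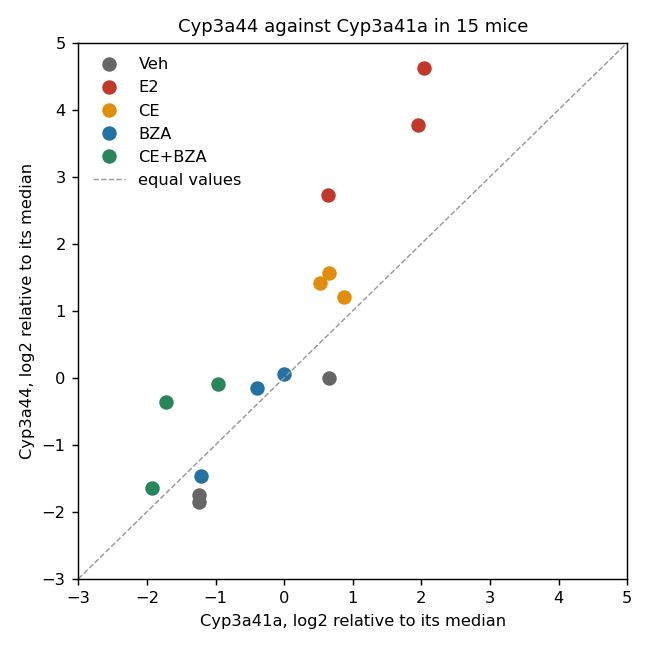
Cyp3a44 (y axis) against Cyp3a41a (x axis) in the 15 mice, both as log2 values relative to the median of the gene, with colours for the groups and a dashed line of equal values. The 3 E2 mice lie 1.82 to 2.57 above the line and the 3 Veh mice 0.51 to 0.65 below it.

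Across the 15 mice Cyp3a44 and Cyp3a41a were the Cyp3a pair with the highest correlation (Pearson r 0.91, Spearman rho 0.90). The r was 0.83 without the 2 mice farthest from the median, and 0.90 for the deviations from the group means, so the likeness did not rest on the treatments alone. This is a description, since the mice share treatments and the transcripts share the sequence stretches given above. The difference between these genes was not constant: Cyp3a44 minus Cyp3a41a was -0.65, -0.62 and -0.51 in Veh mice and 1.82, 2.08 and 2.57 in E2 mice. In CE mice it was 0.33, 0.92 and 0.90, and in CE+BZA mice 1.37, 0.28 and 0.87. The E2 mice did not overlap any other group on this difference, and 3 mice against 3 cannot give an exact permutation p below 0.1.

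CE+BZA was compared with each of the other treatments. Against E2, Cyp3a44 had a log2 difference of -4.40 (SE 0.65, 95% confidence interval -5.77 to -3.03, FDR 0.00463 by limma), or 21.1-fold lower. Cyp3a41a was at -3.08 (SE 0.59, 95% confidence interval -4.33 to -1.83, FDR 0.0487), or 8.45-fold lower. These 2 of the 5 Cyp3a rows passed, where 0.157% of all genes passed. For these genes and Cyp3a59 (3 of 5), every CE+BZA mouse was below every E2 mouse, an order that 8.49% of all genes showed.

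The calls differ in how firmly they stand. The Cyp3a44 call was lost without E2 mouse 5 (FDR 0.0594) or without CE+BZA mouse 2 (FDR 0.0578), without variance shrinkage (FDR 0.0824) and with only the mice compared (FDR 0.138), while the log2 difference stayed between -4.89 and -3.93 when each mouse was left out. The Cyp3a41a call lies just inside the threshold and was lost without shrinkage (FDR 0.10), with only the mice compared (FDR 0.156) and in 11 of 15 fits without 1 mouse, where the difference stayed between -3.53 and -2.83. The hepatocyte gene Tat was also higher in CE+BZA mice (0.84 to 1.58) than in E2 mice (-0.06 to 0.48), and its part in these results was not tested.

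Against CE alone, the log2 difference of CE+BZA was -2.10 for Cyp3a44 (95% confidence interval -3.47 to -0.72, unadjusted p 0.0051 and FDR 0.203 by limma) and -2.22 for Cyp3a41a (95% confidence interval -3.47 to -0.97, unadjusted p 0.00166 and FDR 0.155). Neither passed, where 0.0393% of all genes did (0 of 5 Cyp3a rows, with 3 lower and 0 higher at an unadjusted p under 0.05, beside 7.31 and 7.11% of all genes). All 3 CE+BZA mice were below all 3 CE mice for both genes and for Cyp3a59 (9.82% of all genes were so ordered). Other genes also separated these groups without overlap. Tat was at -0.27 to 0.00 with CE and at 0.84 to 1.58 with CE+BZA, the mean of 8 of 19 erythroid markers at -0.07 to 1.60 and -1.28 to -0.40, and the mean of 6 of 14 lymphocyte markers at 0.48 to 0.92 and -0.31 to 0.23. Their part in the result was not tested. Against BZA alone, no Cyp3a row passed (0 of 5, and 0% of all genes; 0 of 5 also at an unadjusted p under 0.05 in either direction, beside 4.32% of all genes higher and 4.44% lower, and 0 of 5 in all of these without BZA mouse 3), and the differences of the 5 genes lay between -1.003 for Cyp3a41a and 0.07 for Cyp3a57, and without that mouse between -1.34 and -0.09 for the same genes.

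E2 was also compared with BZA. Cyp3a44 was 4.22 higher with E2 (SE 0.65, 95% confidence interval 2.85 to 5.60, FDR 0.00514 by limma), or 18.7-fold, as 1 of 5 Cyp3a rows that passed beside 0.275% of all genes. Without BZA mouse 3 the difference was 3.75 and the FDR 0.10, which does not pass, although both remaining BZA mice were below all E2 mice. The call was also lost without E2 mouse 5 (FDR 0.0641), without shrinkage (FDR 0.0578) and with only the mice compared (FDR 0.200). E2 mice were above all 3 BZA mice for Cyp3a44 and Cyp3a41a (2 of 5, beside 6.92% of all genes), as also without BZA mouse 3. For Cyp3a41a the difference was 2.08 (FDR 0.176), and 1.74 without BZA mouse 3 (FDR 0.431). Between CE and BZA no Cyp3a row passed (0 of 5, with 1 higher at an unadjusted p under 0.05, Cyp3a44 at 1.92 with an unadjusted p of 0.0091, and at 1.45 without BZA mouse 3; 0 lower; 0% of all genes passed, with 5.54% higher and 5.7% lower at that unadjusted p). All CE mice were above all BZA mice for Cyp3a44, Cyp3a41a and Cyp3a59 (3 of 5, beside 7.58% of all genes), as also without BZA mouse 3, when 0 of 5 were higher or lower at the unadjusted p.

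The design allows a test of whether CE and BZA add up on the log2 scale, as the sum of the CE+BZA and Veh means less the CE and BZA means, which is 0 for an additive combination. This reading assumes that the combination held each drug at its single-treatment dose, which is not stated. Cyp3a44 was at -2.78 (SE 0.92, 95% confidence interval -4.72 to -0.84, FDR 0.257 by limma) and -3.25 without BZA mouse 3. Cyp3a41a was at -2.29 (SE 0.84, 95% confidence interval -4.06 to -0.53, FDR 0.302) and -2.63 without that mouse. For both genes the combination was thus below the sum of its parts by the estimate, but neither passed an FDR of 0.05 (0 of 5 Cyp3a rows and 0.118% of all genes passed, and 0 of 5 without that mouse). Cyp3a57 had the opposite sign (1.70, FDR 0.413; 1.54 without BZA mouse 3), and Cyp3a11 and Cyp3a59 were at 0.45 each (0.31 and 0.15 without it).

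The other 3 genes showed another pattern, with their highest group mean in Veh mice. Cyp3a11, the main inducible isoform, was at 1.24 (mouse 7), 0.44 (mouse 1) and 0.36 (mouse 4) with Veh and at -0.13 (mouse 4), -0.63 (mouse 3) and -1.62 (mouse 5) with E2. The E2 mice were below all Veh mice, a log2 difference of -1.47 (SE 0.49, 95% confidence interval -2.50 to -0.43, unadjusted p 0.00819 and FDR 0.225 by limma) that did not pass. E2 mouse 5, the highest for Cyp3a44, was the lowest of all 15 mice for Cyp3a11. In CE, BZA and CE+BZA mice Cyp3a11 lay between -0.51 and 0.33, also below all Veh mice, and the differences from Veh were -0.65, -0.64 (-0.51 without BZA mouse 3) and -0.85. Only the E2 difference of this gene was over 2-fold, so its row is in the table through E2 against Veh.

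Cyp3a57, at the proximal end of the span, was at 2.05 (mouse 7), 1.87 (mouse 1) and 1.25 (mouse 4) with Veh. It was at 1.44 (mouse 4), 0.00 (mouse 3) and -0.49 (mouse 5) with E2, and between -0.86 and 0.80 in the 9 mice given CE, BZA or CE+BZA. These 9 mice were thus all below the Veh mice, while E2 mouse 4 overlapped them. The differences from Veh were -1.41 with E2, -1.63 with CE, -2.00 with BZA (-1.84 without BZA mouse 3) and -1.93 with CE+BZA, with an FDR between 0.153 and 0.309 by limma.

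Cyp3a59, at the distal end, was at 1.79 (mouse 7), 0.94 (mouse 1) and 0.91 (mouse 4) with Veh. It was at 0.80 (mouse 4), -0.45 (mouse 3) and 0.53 (mouse 5) with E2, and between 0.00 and 0.32 with CE. With BZA it was at -1.30 (mouse 3), -0.17 (mouse 1) and -0.63 (mouse 4), and with CE+BZA at -0.72 (mouse 1), -1.55 (mouse 2) and -1.56 (mouse 3). All 12 treated mice were below all Veh mice, and of the 5 Cyp3a rows 3 were so ordered with CE, BZA (with or without mouse 3) and CE+BZA each, beside 12.3, 11.8 and 13.7% of all genes. The group means ran from Veh through E2, CE and BZA to CE+BZA, with overlap between E2 and CE, E2 and BZA, and BZA and CE+BZA. Without BZA mouse 3, all CE+BZA mice were below the remaining BZA mice for Cyp3a59, and also for Cyp3a41a. The share of all genes so ordered was not computed, so this order is only a description.

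The CE+BZA difference of Cyp3a59 from Veh was -2.49 (SE 0.50, 95% confidence interval -3.55 to -1.42), or 5.60-fold lower, with an FDR of 0.0561 by limma, just outside the threshold. In this comparison the adipocyte mean was at 0.60 to 0.68 with Veh and -0.16 to 0.32 with CE+BZA. This gap was carried by Cfd (3.15 to 4.89 with Veh and -0.37 to 0.11 with CE+BZA) and Car3. Adipoq and Lep were at 0 in all mice of both groups, and Plin1 was at 0 with Veh and reached 0.95 with CE+BZA. Tat was at -0.60 to -0.04 with Veh and 0.84 to 1.58 with CE+BZA. The part of these markers in the result was not tested. No Cyp3a row therefore passed in CE+BZA against Veh (0 of 5, with 2 lower and 0 higher at an unadjusted p under 0.05; 0.118% of all genes passed, and 9.55 and 11.6% were lower and higher at that p). Without BZA mouse 3, which enters only the estimate of the spread here, the FDR was 0.0399, and it was under 0.05 under quantile normalization (0.0196), with each mouse centred on its median (0.0498), with genes at the lowest value in 2 or more mice left out (0.0225) and without variance shrinkage (0.0338). It did not pass in 13 of the 15 fits that left out 1 mouse, in which the FDR reached 0.206 (without Veh mouse 7), nor with only the mice compared (0.0920). With BZA alone the difference was -1.91 (FDR 0.182; -1.61 without BZA mouse 3), with CE -1.03 (FDR 0.276) and with E2 -0.91 (FDR 0.365). In BZA against Veh no Cyp3a row passed (0 of 5), nor did any other gene (0%), while 2 of 5 were lower and 0 higher at an unadjusted p under 0.05, beside 7.47 and 8.92% of all genes. These counts were the same without BZA mouse 3.

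**Figure D3:**
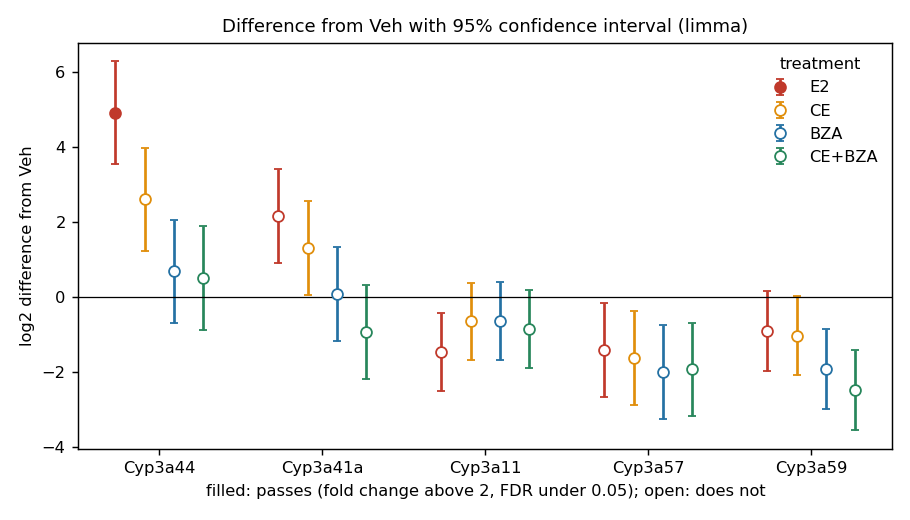
Log2 difference from Veh (y axis) of each Cyp3a gene with each treatment, with 95% confidence intervals by limma on 15 mice; filled points pass the test. Cyp3a44 with E2 (4.90) is the filled point, and the estimates of Cyp3a11, Cyp3a57 and Cyp3a59 are below 0 with all 4 treatments.

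Cyp3a57 and Cyp3a59 followed each other across the 15 mice (Pearson r 0.79, Spearman rho 0.74, and r 0.67 without the 2 mice farthest from the median), as did Cyp3a11 and Cyp3a57 to a lesser degree (0.66, 0.65 and 0.59). Cyp3a44 and Cyp3a11 had opposite signs over the mice (r -0.54, rho -0.48), but not in the deviations from the group means (r 0.24). Cyp3a44 and Cyp3a59 were at r 0.26 over the mice and 0.76 in the deviations. These are descriptions over 15 mice that share treatments and, within a mouse, a library.

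The genes outside the Cyp3a rows whose pattern was most like Cyp3a44 over the 15 mice were, by Pearson r, Cyp17a1 (0.87), a steroid hydroxylase and lyase, Cyp2c69 (0.85), a member of the Cyp2c family, Dntt (0.82), a template-independent DNA polymerase, the aldo-keto reductase Akr1b7 (0.81) and the gene model AC111135.1 (0.80). AC111135.1 was at its lowest value in 8 mice. The 5 most like Cyp3a41a were Akr1b7 (0.82), Cyp2c69 (0.82), Cyp17a1 (0.80), the myelin protein gene Ncmap (0.79) and the gene model Gm9847 (0.79). Akr1b7, Cyp2c69 and Cyp17a1 were thus among the 5 for both genes.

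Cyp17a1 was at 0.00, -0.89 and -1.27 in Veh mice 7, 1 and 4 and at 0.87, 1.23 and 2.08 in E2 mice 4, 3 and 5, with no overlap. Its log2 difference was 2.11 (FDR 0.143 by limma), which did not pass. Cyp2c69 was between 1.46 and 1.66 in E2 mice and at most 0.39 in Veh mice, a difference of 1.86 (FDR 0.195). Of these 7 genes, Gm9847 passed in 1 of the 10 pairwise comparisons of groups, CE+BZA against CE (-3.28, FDR 0.0499, a call lost in 14 of 15 fits without 1 mouse), and the other 6 in none.

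**Figure D4:**
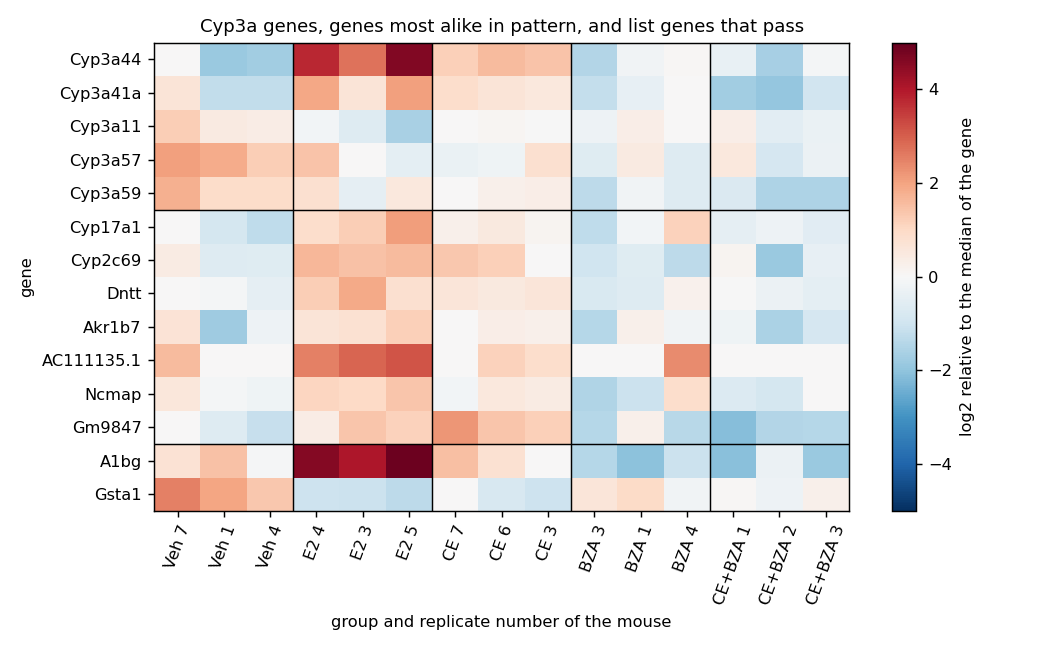
Heat map of log2 values relative to the gene's median (colour) in the 15 mice (columns, by group and replicate number) for the 5 Cyp3a genes, the 7 genes most like Cyp3a44 or Cyp3a41a and the 2 pathway-list genes that passed, A1bg and Gsta1. Cyp3a44 and A1bg are deepest red in the 3 E2 mice, and Gsta1 is highest in the Veh mice.

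Genes of related pathways were taken from 7 lists. Of the female-biased liver genes outside Cyp3a, 23 of 36 were in the table. In E2 against Veh, A1bg, a secreted plasma glycoprotein, rose by 3.79 (FDR 0.00754 by limma), as 1 of 23 that passed, and 0 of 23 passed in the other direction. At an unadjusted p under 0.05 and a fold change above 2, 6 were higher and 5 lower, beside 6.52 and 8.61% of all genes. Among the higher were Cyp17a1, Cyp2c69 and Cyp2a4 (1.52), a steroid hydroxylase, and among the lower Cyp2b13 (-2.71, FDR 0.0863). The A1bg call was lost without Veh mouse 4 (FDR 0.0667), without E2 mouse 5 (FDR 0.0549) and with only the mice compared (FDR 0.103). The list was split, with a median of 0.12 beside 0.00 over all genes. A1bg was at 4.59, 4.03 and 4.91 in E2 mice 4, 3 and 5, and at most 1.51 in the other 12 mice.

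In CE+BZA against E2 the same list lay mostly on the lower side. A1bg fell by 5.92 (FDR 5.6e-05, and 0.0635 with only the mice compared), 1 of 23 that passed, and 13 of 23 were lower and 1 higher at the unadjusted p, beside 5.46 and 7.7% of all genes. The median was -1.52 beside 0.17 over all genes. The list was also low in CE+BZA against Veh, with a median of -1.45 beside 0.08 over all genes. There 14 of 23 were lower and 1 higher at the unadjusted p, beside 9.55 and 11.6% of all genes. Of the male-biased genes 15 of 41 were in the table and 0 passed in either comparison. At the unadjusted p, 1 was higher and 2 lower in E2 against Veh, beside 6.52 and 8.61% of all genes. In CE+BZA against E2 6 were higher and 0 lower, beside 7.7 and 5.46%. In CE+BZA against Veh 7 were higher and 1 lower at the unadjusted p, beside 11.6 and 9.55% of all genes, with a median of 1.06 beside 0.08. Their median was -0.49 beside 0.00 over all genes in E2 against Veh, and 0.95 beside 0.17 in CE+BZA against E2. The largest was the male-predominant fatty acid hydroxylase Cyp4a12a, at -3.45 in E2 against Veh (FDR 0.0863) and 3.53 in CE+BZA against E2 (FDR 0.0647), and at its lowest value in 4 mice. In that gene all 3 E2 mice were below all CE+BZA mice, opposite in direction to Cyp3a44.

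Of the target genes of the pregnane X and constitutive androstane receptors outside Cyp3a, 17 of 49 were in the table. In E2 against Veh 1 of 17 passed, Gsta1, a glutathione transferase of detoxification, which fell by 3.08 (FDR 0.00754). At the unadjusted p, 1 was higher and 7 were lower, beside 6.52 and 8.61% of all genes, and the median was -0.79 beside 0.00 over all genes. Gsta1 was at 2.53, 1.96 and 1.33 in Veh mice 7, 1 and 4 and at -1.05, -1.06 and -1.29 in E2 mice 4, 3 and 5. The call was lost without Veh mouse 1 (FDR 0.0545), without E2 mouse 5 (FDR 0.0549) and with only the mice compared (FDR 0.103). Gsta1 also fell with CE by 2.56 (FDR 0.0462), a call lost in 11 of 15 fits without 1 mouse, with an FDR up to 0.163. In CE+BZA against E2 no gene of this list passed (0 of 17, with 2 higher and 4 lower at the unadjusted p, beside 7.7 and 5.46% of all genes).

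Few of the regulators themselves had a row. Of 20 Cyp3a regulators 3 were listed, the transcription factors Foxa3, Cebpb and Pparg, with differences of 0.82, 0.41 and -1.30 in E2 against Veh, none of which passed. Of the growth hormone axis 5 of 18 genes were listed, and 0 passed in E2 against Veh or in CE+BZA against E2. Cux2, a female-predominant repressor, was at 2.08 (FDR 0.317) in E2 against Veh and the feedback inhibitor Socs2 at 1.57 (FDR 0.261). Socs2 was at -2.19 (FDR 0.143) in CE+BZA against E2. In that comparison 3 of the 5 listed genes of this axis were higher and 2 lower, with a median of 0.99 beside 0.17 over all genes. Of the estrogen-metabolizing enzymes outside Cyp3a 4 of 16 were listed and of bile acid and cholesterol catabolism 2 of 20 (Cyp7a1 and Cyp46a1), and 0 passed in either comparison. Cyp7a1, the rate-limiting enzyme of bile acid synthesis, was at -0.38 (FDR 0.745) in E2 against Veh.

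The table held 25 rows of other Cyp genes, and none passed in any of the 10 pairwise comparisons (0 of 25, with 5 higher and 7 lower at the unadjusted p in E2 against Veh, beside 6.52 and 8.61% of all genes). Around the Cyp3a rows, 59 other annotated genes lie within 500 kb, 33 of them protein coding, and 1 has a row, Gpr12, a G protein-coupled receptor gene at chr5:146582398-146585239. Its difference from Veh was -0.27 with E2 (FDR 0.892) and 1.32 with CE (FDR 0.300), neither of which passed.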

How the data were processed

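Polyadenylated liver RNA of 15 mice was sequenced, 3 per group. The authors trimmed the reads (FASTQ Trimmer 1.0.0), mapped them with TopHat 0.5, quantified genes with StrandNGS 3.1, partial reads included, and applied the DESeq normalization. The submitters' processing notes name mm10 and hg19 with no role. The labels give stranded libraries read from both ends, and the methods single-end reads. The labels also speak of 2 samples per group sequenced, where the methods and the table have 3, and n = 3 follows the table. The deposited values are log2 values centred per gene on its median, which is 0 for each of the 2545 genes. All 2545 have a group mean over 2-fold from Veh in at least 1 treatment, and 1045 (41.1%), no Cyp3a row among them (0 of 5), have 2 or more mice at the lowest value. Depth per mouse is unknown. Columns were matched to groups by name, with 0 left over.

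The deposited values entered a 5-group linear model with all 15 mice and without filter or pseudocount (limma 3.58.1, R 4.3.3), so all groups share 1 estimate of the spread. P-values were two-sided and adjusted by Benjamini-Hochberg (FDR) over the 2545 genes. The threshold was a fold change above 2 with an FDR below 0.05; for additivity it was the FDR only. The fit was tested on simulated data. No set test was run. Positions came from the GRCm38 annotation and upstream windows from RefSeq (GRCm38.p6). Sequence identity was counted over columns of a global alignment. Python 3.11.15 and matplotlib 3.10.9 were used for the rest.

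The Cyp3a rows and the gene lists were chosen with earlier results of these data known. Named genes are every Cyp3a row and the 5 genes most correlated with each of Cyp3a44 and Cyp3a41a. From each list, the 4 with the smallest p in E2 against Veh and in CE+BZA against E2 are named. Genes of the lists that passed, rows within 500 kb and other Cyp genes that passed are also named. The marker genes Adipoq, Plin1, Lep, Amy2a5, Cfd, Car3, Adrb3, Tat and Marco were named after their values were seen. Alternatives were quantile normalization, centring of each mouse, a filter on lowest values, no or robust variance shrinkage, an unadjusted p, a replicate block, only the mice compared, and leaving out each mouse in turn.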

Additional observations from a re-analysis of the deposited data

How the results depend on the processing

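The directions of the Cyp3a differences that were recomputed were the same under quantile normalization and centring of each mouse. The filter on lowest values, no or robust shrinkage and the fit of only the mice compared leave the group means of these genes unchanged. Directions could therefore not change under these settings, and only the FDR could. The replicate numbers do not pair the mice: the correlation of deviations lay between -0.05 and 0.10 over 13 pairs of mice with the same number, none above 0.1 (0 of 13). With the numbers as a replicate block, no Cyp3a row passed in E2 against Veh (0; Cyp3a44 4.80, FDR 0.263), CE+BZA against E2 (0; Cyp3a44 -3.28 and Cyp3a41a -2.35, FDR 0.532 each) or E2 against BZA (0; Cyp3a44 3.73, FDR 0.142), 0 pathway-list genes passed in E2 against Veh, and Cyp3a11 turned to 0.15 in CE+BZA against CE.

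With only the mice compared, 0 Cyp3a rows passed in E2 against Veh (Cyp3a44 4.90, FDR 0.103), in CE+BZA against E2 (Cyp3a44 -4.40, FDR 0.138, and Cyp3a41a -3.08, FDR 0.156) and in E2 against BZA (Cyp3a44 4.22, FDR 0.200), and 0 pathway-list genes in the former 2 comparisons; that fit has fewer mice behind its spread. Without shrinkage, 0 passed in CE+BZA against E2 (Cyp3a44 -4.40, FDR 0.0824, and Cyp3a41a -3.08, FDR 0.10) and in E2 against BZA (Cyp3a44 4.22, FDR 0.0578), and 1 (Cyp3a59) in CE+BZA against Veh, as also under quantile normalization, centring and the filter. With an unadjusted p, Cyp3a41a passed in E2 against Veh (2.15). The Cyp3a rows that passed against Veh were then 4 with E2 (2 higher and 2 lower), 3 with CE, 2 with BZA and 2 with CE+BZA. Between treatments they were 3 in CE+BZA against CE, 1 in E2 against CE, 2 in E2 against BZA and 1 in CE against BZA. For additivity they were 2. Shares of all genes at this p are given by direction in the Results, but not for E2 against BZA or additivity. They were not computed there, so those counts are only a description. Of 62 pathway-list genes, 22 passed at the unadjusted p in E2 against Veh and 24 in CE+BZA against E2. Of all genes, 15.1 and 13.2% did. Other causes were not tested.

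When each mouse was left out in turn, the Cyp3a rows that passed numbered 1 in all 15 fits for E2 against Veh, 0 to 2 for CE+BZA against E2, 0 to 1 for E2 against BZA and 0 to 1 for CE+BZA against Veh, and pathway-list genes 0 to 3 and 1 to 2 in E2 against Veh and CE+BZA against E2. Cyp3a44 ranged from -4.89 to -3.93 in CE+BZA against E2 and from 3.75 to 4.71 in E2 against BZA, and Cyp3a41a from -3.53 to -2.83 in CE+BZA against E2. The sign turned for Cyp3a41a in BZA against Veh (-0.24 to 0.71) and for Cyp3a57 in CE+BZA against E2 (-0.93 to 0.038) and against CE (-0.68 to 0.053). Depth per mouse is unknown, and 3 mice per group limit the precision.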
